A study of Danio rerio with 8 samples.

Results

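The microRNAs (miRNAs) dre-miR-182, dre-miR-183 and dre-miR-96, which lie in 1 genomic cluster, were followed in zebrafish embryos given the cyanobacterial toxin microcystin-RR (MC-RR). They were found on the chip by their probe names, without the star forms, and they make up 3 of the 248 zebrafish miRNA probes. Small RNAs isolated from total RNA of whole embryos at 72 hpf were hybridized with 1 dye (Cy5), 1 array per sample. There were 4 arrays of embryos injected with MC-RR in saline and 4 of controls that received saline. Of the doses it tried, the study took for the arrays the one that gave most malformed embryos while mortality stayed fairly low. The study's methods name the wild-type AB strain and a flk:GFP line without saying which gave the array samples, and MC-RR was injected into the yolk of cleavage-stage embryos. The number of embryos per sample is not given in the sources used here. The labels call the arrays of a group biological replicates. The series' design text calls the embryos paired, whereas the methods name no pairing. Tests without pairing are therefore given beside tests that use the replicate number.

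In vertebrates these miRNAs are known as a sensory cluster, processed from a shared primary transcript. They are abundant in the mechanosensory hair cells of the ear and lateral line and in the photoreceptors of the retina, and they also occur in olfactory and other sensory cells. In mice and humans, changes in the seed of miR-96 cause progressive hearing loss, and in mice loss of the cluster impairs hair cells and retina. A miRNA acts by pairing its seed, bases 2 to 8 from its 5′ end, with sites in target mRNAs, so miRNAs with like seeds can act on overlapping targets. In RNA of a whole embryo, fewer sensory cells and less of the miRNA per cell cannot be told apart.

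The target sequences listed for the probes are shown because they set how alike the members are, both in their seeds (capitals) and in the stretch that a probe reads.
dre-miR-182: uUUGGCAAugguagaacucaca
dre-miR-183: uAUGGCACugguagaauucacug
dre-miR-96: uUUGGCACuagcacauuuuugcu
The seeds of dre-miR-182 and dre-miR-96 differed at 1 base (A8C, counted from 1 at the 5′ end), and those of dre-miR-183 and dre-miR-96 at 1 base (A2U). Between dre-miR-182 and dre-miR-183, 18 of 22 bases were identical (U2A, A8C, C17U, A22U), whereas dre-miR-96 matched dre-miR-182 at 12 of 22 bases and dre-miR-183 at 13 of 23. The probe closest to dre-miR-182 among the other 247 zebrafish probes was that of dre-miR-183, with 4 mismatches, and the next closest had 9. Shared signal between these probes was not tested. In the RefSeq gene table for GRCz12tu the loci are direct neighbours, in the order dre-mir-183, dre-mir-96 and dre-mir-182, with 0 other genes annotated within the span.

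As scanned, median intensities over the zebrafish probes ran from 106 to 384 on the MC-RR arrays and from 199 to 375 on the control arrays. The 95th percentile of the 206 blank spots, taken here as the background, ran from 49.7 to 188 on the MC-RR arrays and from 72.7 to 512 on the control arrays. The 512 was on control replicate 4, where 71 zebrafish miRNAs exceeded it, against 157 to 224 on the MC-RR arrays and 152 to 197 on the other control arrays. MC-RR replicate 2 also stood apart, as its deposited values correlated with the scan of any other array by at most 0.859 (Spearman's rho across probes), against 0.962 to 0.986 for the rest, and values without both arrays are given below. Values below are normalized log2 signals, from background-corrected intensities averaged over the 10 spots of a probe and normalized between arrays. The 187 miRNAs above the background on at least 4 of the 8 arrays, all 3 members included, were tested with limma. Values of different probes are not compared as levels, since a probe's brightness also depends on its sequence.

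On these arrays the mean signals of the members differed in direction between MC-RR and control, though no member passed adjustment. The normalized signal of dre-miR-182 was higher on every MC-RR array than on every control array, with a log2 fold change of 0.41, a fold of 1.33. Those of dre-miR-183 and dre-miR-96 lay lower on average, with log2 fold changes of -0.52 and -0.56, folds of 0.698 and 0.678. All 3 had an unadjusted limma p under 0.05, 1 with a higher and 2 with a lower signal. Over all 187 tested miRNAs this held for 8.56%, with 4.28% in each direction. With Benjamini-Hochberg adjustment across the 187, none of the 3 had a limma p under 0.05. The adjusted limma p was under 0.05 for 0 of the 187 (0%) and the unadjusted p for 16. The test of means named in the study's methods was run anew on these normalized values, so its counts are not the study's own. It gave an unadjusted p under 0.05 for 16 unpaired and 29 (15.5%) paired by replicate number, and 0 after adjustment either way. For dre-miR-182, dre-miR-183 and dre-miR-96 its unadjusted p was 0.0133, 0.0555 and 0.0294 unpaired. Paired, it was 0.0202, 0.0473 and 0.0773. Set against each other on the same array, dre-miR-182 gained on dre-miR-183 by 0.93 and on dre-miR-96 by 0.97 on the log2 scale, and neither difference overlapped between MC-RR and control arrays. Of all tested miRNAs 3.21% did not overlap, and of all 17391 within-array differences between them 6.32% did not. Since dre-miR-182 by itself did not overlap, the separation of its differences is not added support. The share among differences that contain dre-miR-182 was not counted. Paired by replicate number, the exact sign-flip p of both shifts was 0.125, the smallest that 4 pairs allow.

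**Figure D1:**
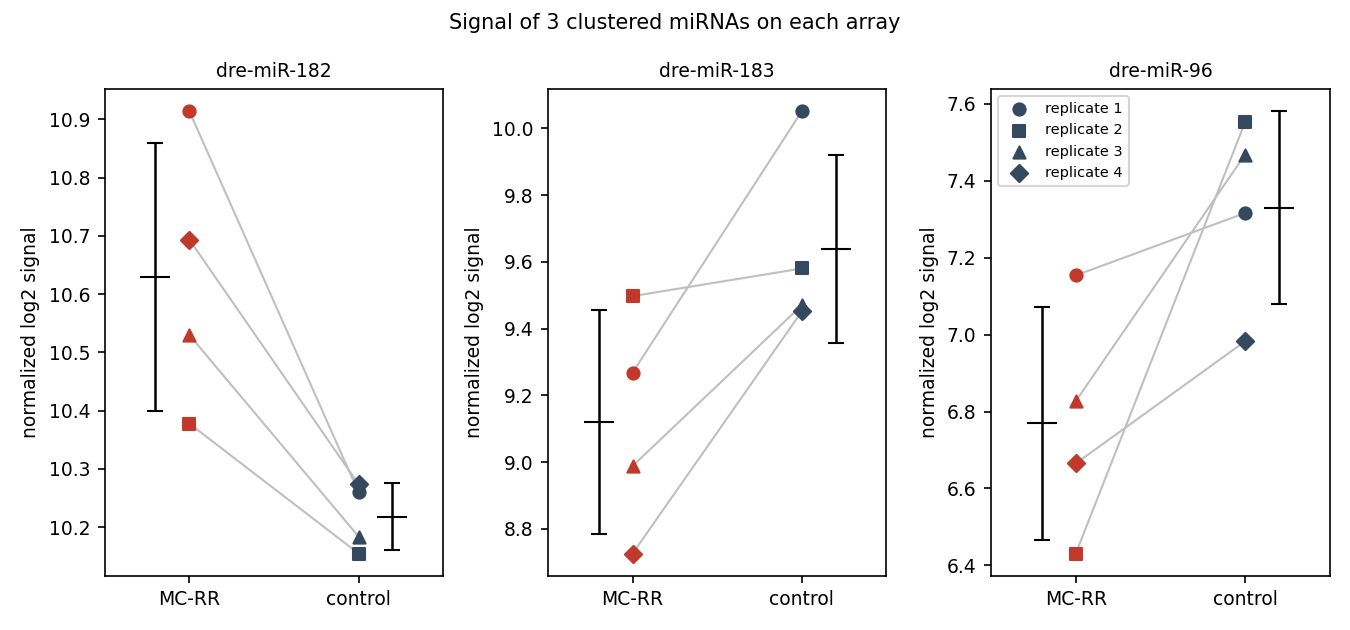
Normalized log2 signal (vertical axes, each with its own range) of dre-miR-182, dre-miR-183 and dre-miR-96 on the 4 MC-RR arrays (red) and the 4 control arrays (dark). Marker shapes give the replicate number, grey lines join arrays of one number, and black bars are mean ± SD. The 4 MC-RR arrays of dre-miR-182 sit above all control arrays, and the lines of dre-miR-183 and dre-miR-96 run the other way.

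dre-miR-182 is known from mouse and fish photoreceptors and hair cells. Its normalized log2 signal was 10.91, 10.38, 10.53 and 10.69 on MC-RR replicates 1 to 4, against 10.26, 10.15, 10.18 and 10.27 on control replicates 1 to 4. The lowest MC-RR array lay above the highest control array, and the control arrays were tight while the MC-RR arrays spread. The means were 10.63 ± 0.23 on the MC-RR arrays and 10.22 ± 0.06 on the control arrays (SD, n = 4 each). The log2 fold change of 0.41 had a standard error of 0.15 and a 95% interval of 0.06 to 0.76. The limma p was 0.0256 (adjusted p 0.427), and the exact permutation test over the arrays gave p = 0.0286, two-sided, the smallest that 4 arrays against 4 allow. Groups without overlap were found for 3.21% of the tested miRNAs, 2.14% higher and 1.07% lower with MC-RR. With the replicate number as a block, since arrays of one number deviated together, the limma p was 0.0147 (adjusted p 0.184). dre-miR-182 belongs to the miRNAs the study listed from these arrays, so its direction here is not independent of that choice. The unadjusted p was above 0.05 without MC-RR replicate 1 (log2 fold change 0.32) or 4 (0.39), or control replicate 2 (0.39) or 3 (0.40).

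dre-miR-183 lies at the start of the cluster in the order above. It had 9.27, 9.50, 8.99 and 8.73 on MC-RR replicates 1 to 4, against 10.05, 9.58, 9.47 and 9.45 on control replicates 1 to 4. The groups overlapped only through MC-RR replicate 2, which lay above control replicates 3 and 4. Its mean normalized log2 signal was 9.12 ± 0.34 on the MC-RR arrays and 9.64 ± 0.28 on the control arrays (SD, n = 4 each). The log2 fold change of -0.52 had a standard error of 0.22 and a 95% interval of -1.02 to -0.02. In limma the p was 0.0442 (adjusted p 0.516), against 0.0857 in the exact permutation test. Under the replicate block it was 0.0192 in limma (adjusted p 0.194). The value was the most exposed of the 3 to the scaling between arrays, and was -0.23 with quantile normalization (limma p 0.484). Its unadjusted p stayed under 0.05 with 1 array left out only for MC-RR replicate 2 (-0.65) and control replicate 4 (-0.59).

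dre-miR-96, whose seed is linked to hearing loss in mice and humans, gave the dimmest spots in relation to the blanks. Its normalized log2 signal was 7.15, 6.43, 6.83 and 6.66 on MC-RR replicates 1 to 4, against 7.32, 7.55, 7.47 and 6.98 on control replicates 1 to 4. MC-RR replicate 1 lay above control replicate 4, and no other pair of arrays crossed. The means were 6.77 ± 0.30 on the MC-RR arrays and 7.33 ± 0.25 on the control arrays (SD, n = 4 each). The log2 fold change of -0.56 had a standard error of 0.20, with a 95% interval of -1.03 to -0.10. Its limma p was 0.0239 (adjusted p 0.427), against 0.0571 in the exact permutation test. The replicate block gave 0.0305 in limma (adjusted p 0.220). Without MC-RR replicate 2 (log2 fold change -0.45) or 4 (-0.52), or control replicate 2 (-0.49) or 3 (-0.50), the unadjusted p was above 0.05.

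The size of the dre-miR-96 difference depended on how the background was handled. It exceeded the 95th percentile of the blanks on 2 MC-RR arrays and 3 control arrays. As scanned, it gave 245, 44.6, 109 and 73.8 on MC-RR replicates 1 to 4, and on replicates 2 and 4 this was 0.799 and 0.614 times the blank percentile. On control replicates 1 to 4 it gave 154, 212, 202 and 81.2, and on control replicate 4 this was 0.159 times the bright blank percentile of that array. The log2 fold change was -0.56 with the offset of 50 added to the corrected intensity, -0.82 with an offset of 16 and -1.08 with an offset of 1. With the median blank subtracted and a floor of 1 it was -2.96, with the intensity of MC-RR replicates 2 and 4 and control replicate 4 under the median blank. The direction was the same in each case and the size was not.

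By contrast, dre-miR-182 and dre-miR-183 stood clear of the blanks on most arrays. The scanned intensity of dre-miR-182 was between 13.3 and 46.4 times the blank percentile on the MC-RR arrays. On control replicates 1 to 3 it was between 9.60 and 26.5 times, and on control replicate 4 it was 1.62 times. For dre-miR-183 the ratio was between 3.03 and 14.6 on the MC-RR arrays and between 6.86 and 15.6 on control replicates 1 to 3, and it was 0.906 on control replicate 4. The 10 spots of a probe varied within an array by a median coefficient of variation of 13.4% for dre-miR-182, 10.5% for dre-miR-183 and 7.18% for dre-miR-96. Taken spot position by spot position, the log2 fold change of dre-miR-182 was above 0 at all 10 positions (0.29 to 0.57). It was below 0 at all 10 positions for dre-miR-183 (-0.58 to -0.42) and for dre-miR-96 (-0.65 to -0.45). Spots of 1 array share its RNA and are no replicates of the treatment.

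**Figure D2:**
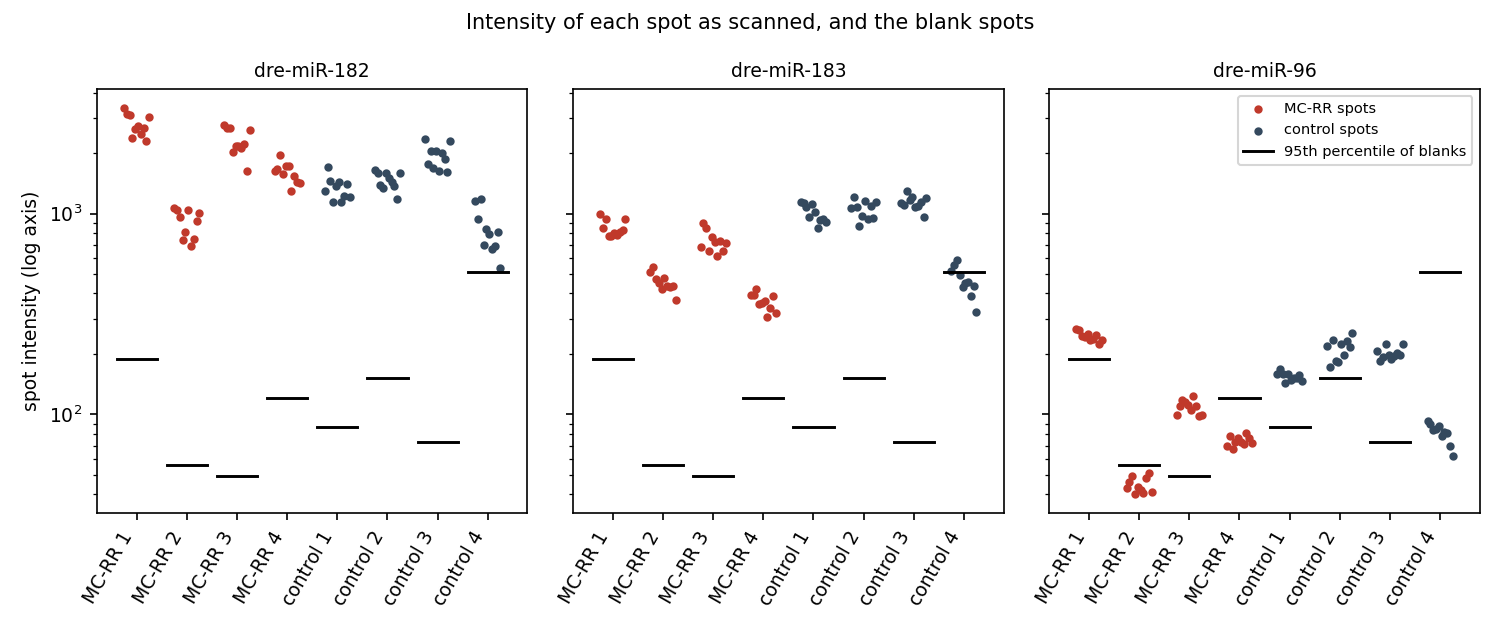
Intensity of each of the 10 spots per probe as scanned (log axis) on the 4 MC-RR arrays (red) and the 4 control arrays (dark), before any correction or normalization, with the 95th percentile of the blank spots of each array as a black line. dre-miR-182 lies above the line on all 8 arrays, and dre-miR-96 lies under it on MC-RR replicates 2 and 4 and control replicate 4, where the line is at 512.

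Whether the members changed unequally was asked on the same array, by the difference of 2 normalized log2 signals. A factor common to a whole array largely cancels in it. A difference between 2 probes has no meaning as a ratio of amounts, and its change between the groups is the comparison. There were 3 such differences, and 2 of them contain dre-miR-182. Those 2 are not separate results, nor separate from dre-miR-182 itself, whose signal did not overlap between the groups. Adjusting over the 3 does not cover that the study had already listed dre-miR-182 from these arrays. For dre-miR-182 minus dre-miR-96 the MC-RR arrays had 3.76, 3.95, 3.70 and 4.03 and the control arrays 2.94, 2.60, 2.72 and 3.29. The means were 3.86 ± 0.15 on the MC-RR arrays and 2.89 ± 0.30 on the control arrays (SD, n = 4 each), which gives a shift of 0.97 with a standard error of 0.17 and a 95% interval of 0.56 to 1.39, a fold of 1.96. The lowest MC-RR array was above the highest control array, and the exact permutation p was 0.0286 (0.0429 adjusted over the 3 differences). The size of this shift and its interval hold for this setting alone. It was 1.25 with an offset of 16, 1.52 with an offset of 1 and 1.65 on the deposited table, without overlap. With the median blank subtracted it was 3.38 and the groups overlapped (exact permutation p = 0.0571).

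For dre-miR-182 minus dre-miR-183, the pair of most alike sequence, the MC-RR arrays had 1.65, 0.88, 1.54 and 1.97 and the control arrays 0.21, 0.57, 0.71 and 0.82. Again the groups did not overlap, although MC-RR replicate 2 came close to control replicate 4. The means of 1.51 ± 0.46 on the MC-RR arrays and 0.58 ± 0.27 on the control arrays (SD, n = 4 each) differed by 0.93, with a standard error of 0.26 and a 95% interval of 0.28 to 1.58. The exact permutation p was 0.0286 (0.0429 adjusted over the 3 differences). With quantile normalization the shift was 0.76 and the groups overlapped (exact permutation p = 0.114). Within each of the 4 replicate numbers both differences were larger on the MC-RR array. Without MC-RR replicate 2 and control replicate 4, the shifts were 1.24 against dre-miR-183 and 1.07 against dre-miR-96, still without overlap.

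dre-miR-183 and dre-miR-96 did not separate by this measure. Their difference was 2.35 ± 0.48 on the MC-RR arrays and 2.31 ± 0.36 on the control arrays (SD, n = 4 each). The shift was 0.04 with a 95% interval of -0.69 to 0.77, and the exact permutation p was 0.800. The interval covers the spread between arrays at this setting alone. The shift was 0.34 with quantile normalization, 0.55 with an offset of 1, 0.69 on the deposited table and 2.26 with the median blank subtracted, with overlapping groups each time (exact permutation p between 0.2 and 0.543). MC-RR replicate 2 stood alone with 3.07, the other MC-RR arrays lying between 2.06 and 2.16, and without it the shift was -0.20.

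**Figure D3:**
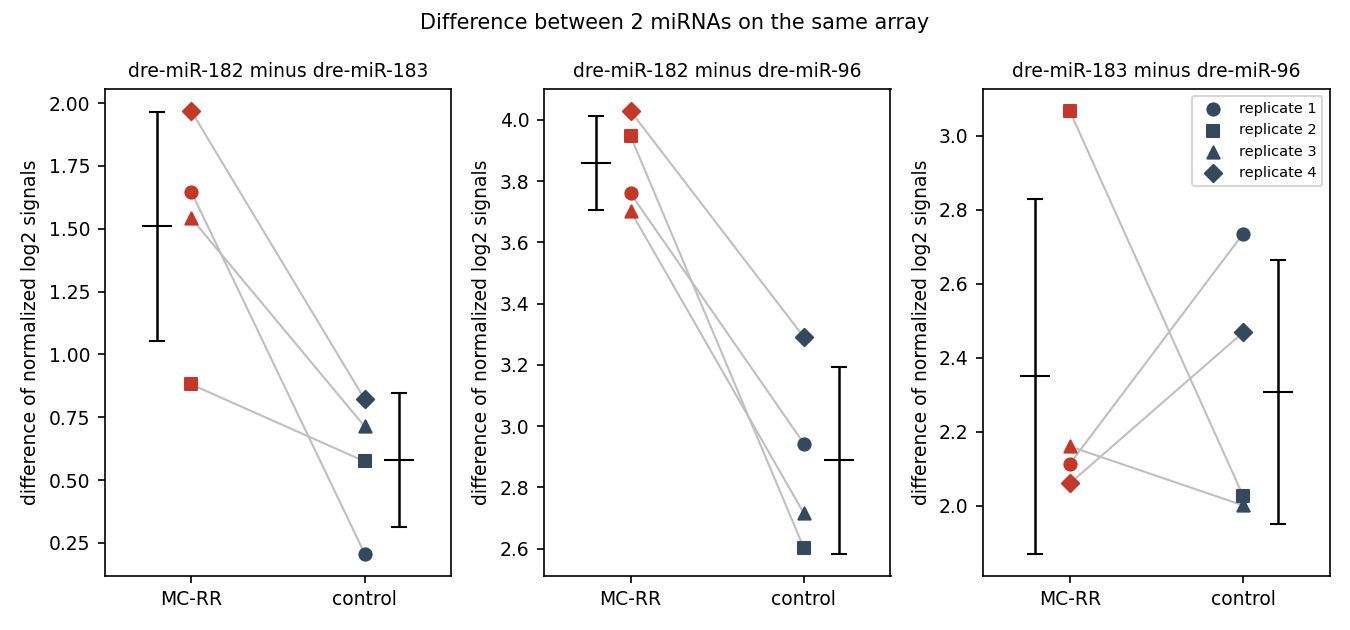
Difference between the normalized log2 signals of 2 members on the same array (vertical axes, each with its own range) for the 4 MC-RR arrays (red) and the 4 control arrays (dark). Shapes give the replicate number, grey lines join one number, and black bars are mean ± SD. The groups are separate for dre-miR-182 against either other member (means 1.51 and 0.58, and 3.86 and 2.89) and overlap for dre-miR-183 minus dre-miR-96.

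By replicate number, the MC-RR array was above its control for dre-miR-182 in 4 of 4 cases, which held for 12.8% of the tested miRNAs. It was below its control in 4 of 4 for dre-miR-183 and dre-miR-96, which held for 20.9%. One direction in all 4 cases was thus common, at 33.7%. With the replicate number as a block, limma gave 30 of the 187 an unadjusted p under 0.05, or 16%, the 3 members among them, with 5.88% higher and 10.2% lower with MC-RR, and 0 (0%) after adjustment. Across the 187, the median absolute log2 fold change was 0.17 and the median signed value was -0.06, with 46.5% above 0. The absolute log2 fold changes of the members were above that median. dre-miR-182 was at rank 10 of the higher and dre-miR-96 and dre-miR-183 at ranks 29 and 30 of the lower, while the most extreme log2 fold changes were 1.47 and -1.53.

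**Figure D4:**
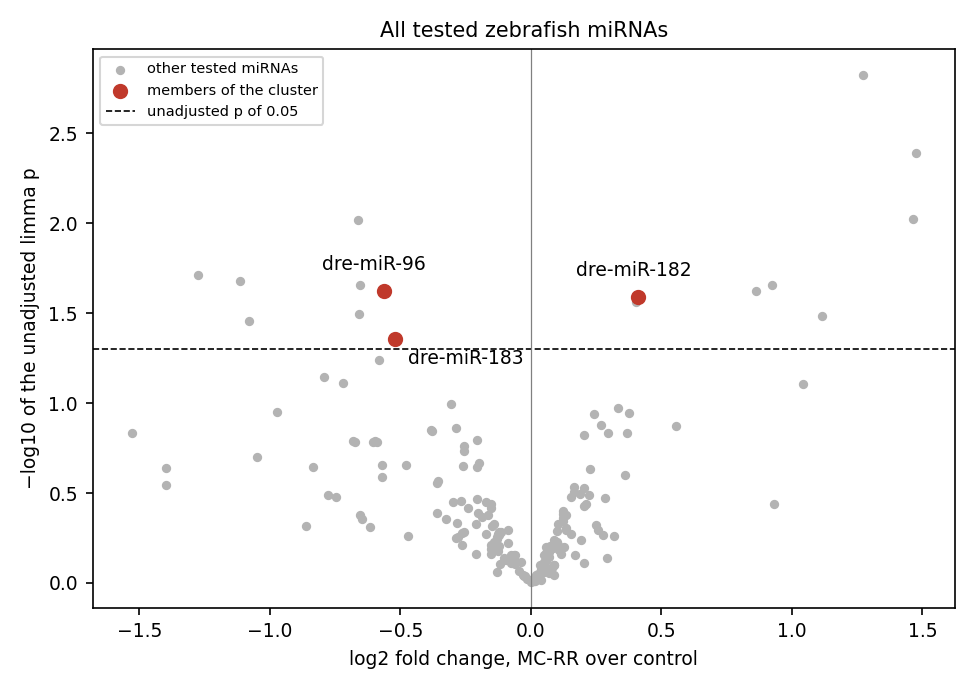
Log2 fold change, MC-RR against control (horizontal axis), and −log10 of the unadjusted limma p (vertical axis) for the 187 tested miRNAs, the 3 members in red. dre-miR-182 lies on the right (0.41) and dre-miR-183 (-0.52) and dre-miR-96 (-0.56) on the left, all above the dashed line at an unadjusted p of 0.05, and none was called after adjustment.

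The deposited normalized intensities, made from the same scans by the service provider, were also read for the members. dre-miR-182 had 2010, 1709, 1543 and 1692 on MC-RR replicates 1 to 4, against 1296, 1215, 1208 and 1171 on control replicates 1 to 4. The groups did not overlap there either, and the ratio of the means was 1.42. dre-miR-183 had 622, 890, 483 and 325 on the MC-RR arrays and 961, 820, 696 and 573 on the control arrays, a ratio of 0.761 with overlapping groups. For dre-miR-96 the values were 71.6, 15.65, 51.15 and 33.8 on the MC-RR arrays and 92.1, 109, 96.6 and 52.0 on the control arrays, a ratio of 0.492 with overlap through MC-RR replicate 1 and control replicate 4. On log2 of these values plus 1, the limma p before adjustment was 0.0424 for dre-miR-182, 0.219 for dre-miR-183 and 0.0388 for dre-miR-96. The shift of dre-miR-182 against dre-miR-183 was 0.96 there, with overlapping groups (exact permutation p = 0.0571).

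Of the opposite arms, dre-miR-182* was on the chip. Its normalized log2 signal was 6.38 ± 0.12 on the MC-RR arrays and 6.54 ± 0.18 on the control arrays (SD, n = 4 each). With 1 MC-RR array and 2 control arrays over the blank percentile, it was not tested. At this signal, no statement is made on a change of the star form.

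The patterns over the 8 arrays were compared by Pearson's r of the normalized log2 signals, given as a description because the highest of 186 values are picked and because r contains the difference between the groups. Most like dre-miR-182 were dre-miR-146a (r = 0.933), a miRNA of innate immune signalling, dre-miR-21 (r = 0.906) and dre-miR-146b (r = 0.804), with log2 fold changes of 1.27, 1.47 and 0.37. Most like dre-miR-183 were dre-miR-126 (r = 0.846), an endothelial miRNA, dre-miR-734 (r = 0.782) and the lens miRNA dre-miR-184 (r = 0.735), with log2 fold changes of -0.66, -0.06 and -0.16. For dre-miR-96 they were dre-miR-181a (r = 0.917) and dre-miR-181c (r = 0.906), of a family common in brain and retina, and dre-miR-730 (r = 0.897), with log2 fold changes of -1.12, -0.65 and -0.26. No member was among the 3 most like miRNAs of another. dre-miR-183 was at rank 32 of 186 for dre-miR-96 (r = 0.514), and dre-miR-96 was at rank 19 for dre-miR-183. dre-miR-182 was at rank 180 for dre-miR-183 (r = -0.633) and at rank 157 for dre-miR-96 (r = -0.426).

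Seeds within 1 base of a member were carried by few other probes. None outside the cluster came within 1 base of dre-miR-182 or dre-miR-96. For dre-miR-183 they were dre-miR-124, the neuronal miRNA, dre-miR-25, dre-miR-363, dre-miR-92a and dre-miR-92b, which share 1 seed, and dre-miR-731, which was not tested. The log2 fold changes of the tested ones ran from -0.36 for dre-miR-124 to 0.09 for dre-miR-92b, and none had an unadjusted p under 0.05.

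Lists of miRNAs from tissues that border on or contain sensory cells were set beside the cluster. The miR-200 group, dre-miR-200a, dre-miR-200b, dre-miR-200c, dre-miR-141 and dre-miR-429, is known from olfactory and other epithelia. All 5 were tested, with log2 fold changes between 0.06 and 0.21 and a median of 0.10, against -0.06 over all tested miRNAs. None of the 5 had an unadjusted p under 0.05. Only 4 of the 5 stayed above 0 without control replicate 1, without control replicate 4, or without both MC-RR replicate 2 and control replicate 4. Their median was 0.23 with quantile normalization, 0.33 with median scaling and 0.16 on the deposited table. In these settings the median of all tested miRNAs was 0.05, 0.10 and 0.06. It was 0.17 for the list without MC-RR replicate 4 and 0.22 without control replicate 2, against -0.06 and -0.08 over all tested. The list median was 0.05 without MC-RR replicate 1, without control replicate 1, and without both MC-RR replicate 2 and control replicate 4. Over all tested miRNAs the median was -0.03, -0.04 and 0.03 there. Of 13 eye and neural miRNAs listed, 12 were on the chip and all 12 were tested. Their log2 fold changes ran from -0.78 (dre-miR-153c) to 0.01 (dre-miR-128), with 11 below 0 and a median of -0.33. Over all tested miRNAs the median was -0.06, and 46.5% lay above 0. The dre-miR-153 forms share a seed, as do the dre-miR-7 forms, so the 12 are not separate observations. Again none of the 12 had an unadjusted p under 0.05. The smallest was 0.0577, for dre-miR-7a (-0.58). The median of this list was -0.19 with quantile normalization, -0.17 with median scaling (9 of 12 below 0) and -0.50 with the median blank subtracted. It was -0.16 without MC-RR replicate 2 and control replicate 4 (9 of 12 below 0). Over all tested miRNAs the median in these settings was 0.05, 0.10, -0.08 and 0.03. With the replicate block, 3 of the 12 had an unadjusted p under 0.05 (dre-miR-219, dre-miR-7a and dre-miR-138, all lower with MC-RR), against 10.2% of all tested miRNAs in that direction, and none after adjustment.

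Marker miRNAs of the tissues that a whole embryo holds were present. All 9 were tested, and 6 of them were above the blanks on all 8 arrays. The log2 fold changes were -1.40 for dre-miR-1, -0.60 for dre-miR-133a and -0.59 for dre-miR-206 of muscle, -0.36 for dre-miR-124 of neurons and -0.10 for dre-miR-122 of liver. They were 0.23 for dre-miR-451 of red blood cells, -1.40 for dre-miR-203a and -0.65 for dre-miR-205 of skin, and -0.16 for dre-miR-184 of lens. None had an unadjusted limma p under 0.05, though dre-miR-206 did with the replicate block (0.0198). On the MC-RR arrays dre-miR-1 and dre-miR-203a spread widely, with SDs of 2.42 and 2.81, against 0.60 and 0.41 on the control arrays. Other tested miRNAs of skin and muscle did not all fall with them. In skin, dre-miR-203b shares the seed of dre-miR-203a but hardly moved (0.03, SDs 0.10 on MC-RR and 0.09 on control arrays). In muscle, dre-miR-499 (0.14) and dre-miR-133c (0.02) were slightly higher and dre-miR-133b (-0.57) was lower. None of these had an unadjusted limma p under 0.05 either. The part of tissue composition in the changes of the cluster was not tested.

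**Figure D5:**
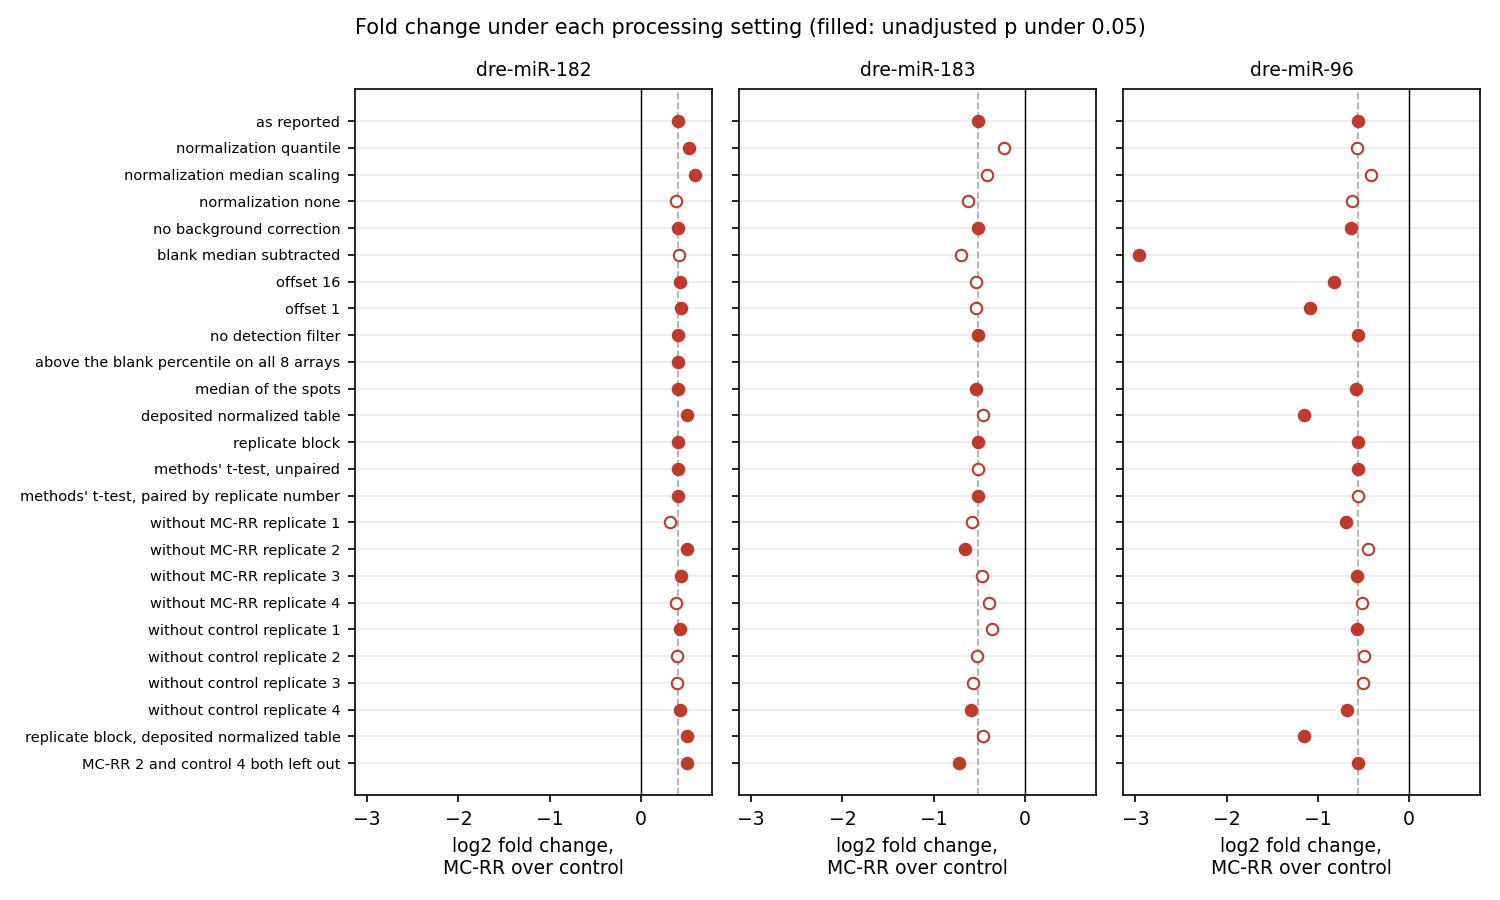
Log2 fold change, MC-RR against control (horizontal axis), for each member under each processing setting (rows), filled where the unadjusted p was under 0.05, with the reported value as a dashed line and 0 as a solid line. dre-miR-182 stays right of 0 and dre-miR-183 and dre-miR-96 stay left of it under every setting shown, and dre-miR-96 reaches -2.96 where the median blank was subtracted.

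Under every setting tried, the direction of each member was kept. The log2 fold change of dre-miR-182 lay between 0.32 and 0.60, that of dre-miR-183 between -0.73 and -0.23, and that of dre-miR-96 between -2.96 and -0.41. Without MC-RR replicate 2 and control replicate 4 they were 0.51, -0.73 and -0.56. None of them was under 0.05 after adjustment in any setting, the smallest adjusted p being 0.184, 0.194 and 0.220, all with the replicate block, and the largest 0.994, without normalization.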

How the data were processed

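Small RNAs of each sample were tailed, tagged and hybridized to 1 array with 1 dye. The scanner output deposited by the authors holds 1 mean intensity per spot on a linear scale, with no background subtraction or normalization. A second deposited table holds linear intensities that, per the authors' methods, were background-subtracted and LOWESS-normalized, 1 per probe. Each of its columns followed its own array most closely (Spearman's rho over 0.99 across probes). No genome build is named, so no positions are given.

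In R 4.3.3 with limma 3.58.1, intensities were corrected with normexp (offset 50), brought to the log2 scale, averaged over 10 spots and normalized by cyclic loess over the 248 zebrafish probes. The offset compresses folds of dim miRNAs. The 187 miRNAs above the 95th percentile of the blanks on at least 4 of 8 arrays were fitted with lmFit and eBayes without a block, as the methods name no pairing. The series' design text calls the embryos paired, and the deviations of same-numbered arrays correlated by 0.58, 0.29, 0.53 and 0.78, so the block was run too. Exact permutation tests, two-sided, were run on within-array differences and single members. Intervals cover the spread between arrays, whose number limits the precision. No 2 arrays held identical values. The scripts were tested on simulated data.

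Alternatives changed the normalization, background, offset, filter, spot summary, test, block and source of values, and left out each array. The members and lists were chosen with earlier results of these data known. The miRNAs named are the members and their star form, those of like seed, the 3 most like in pattern and the listed ones. Further miRNAs of skin and muscle (dre-miR-203b, dre-miR-499, dre-miR-133c and dre-miR-133b) were named after the lists were set. No slide or scan is given, so no such block was run.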

Additional observations from a re-analysis of the deposited data

Results flagged for a closer look

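One value of the 12 groups of 4 checked stood apart from its group by Dixon's measure, and chance alone sets apart about 1 group in 20. It was the difference dre-miR-183 minus dre-miR-96 on MC-RR replicate 2, at 3.07, where the gap to the nearest array was 0.901 of the group's range. On that array dre-miR-183 was the highest of the MC-RR arrays (9.50) and dre-miR-96 the lowest (6.43), and dre-miR-96 was scanned there at 44.6, under the 95th percentile of the blanks of 55.8.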

How the results depend on the processing

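The shift of dre-miR-182 against dre-miR-183 (0.93) was positive in all settings but not under 0.05 in the exact test with quantile normalization (0.76), the deposited table (0.96), the replicate block (0.93, exact sign-flip p = 0.125) or the block on that table (0.96). With each array left out it ran from 0.78 to 1.16, and the exact p was 0.0571 without control replicate 1 (0.79), 2 (0.92), 3 (0.97) or 4 (1.01), though the groups never overlapped. Against dre-miR-96 (0.97) it was not under 0.05 with the blank median subtracted (3.38), the replicate block (0.97, exact sign-flip p = 0.125) or the block on the deposited table (1.65), and ran from 0.88 to 1.10 with each array left out, at exact p = 0.0571 without MC-RR replicate 4 (0.91). With both MC-RR replicate 2 and control replicate 4 left out, chosen like the block on the deposited table after seeing the data, these shifts were 1.24 and 1.07, and 3 arrays against 3 allow no exact p below 0.1. The shift between dre-miR-183 and dre-miR-96, with overlapping groups in all settings, turned sign with median scaling and no normalization (-0.00013 each), with those 2 arrays left out (-0.17) and in the range over single arrays left out (-0.20 to 0.21), and was 2.26 with the blank median subtracted.

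The replicate block moved the unadjusted count over all tested miRNAs to 30, against 16 as reported. For the 3 members no setting, the block included, changed a call at the adjusted threshold. With each array left out, the log2 fold change ran from 0.32 to 0.50 for dre-miR-182, -0.65 to -0.36 for dre-miR-183 and -0.69 to -0.45 for dre-miR-96, and the unadjusted p was under 0.05 in 4, 2 and 4 of the 8 fits. In the other listed settings it was under 0.05 in 12 of 14, 5 of 13 and 9 of 13. dre-miR-183 and dre-miR-96 have no value where all 8 arrays had to exceed the blanks. The median of all tested miRNAs moved by 0.11 with quantile normalization, 0.16 with median scaling and 0.12 on the deposited table. Relative to the median, dre-miR-182 lay at 0.47, 0.48, 0.50 and 0.44 as reported and in these 3, dre-miR-183 at -0.46, -0.28, -0.51 and -0.52, and dre-miR-96 at -0.50, -0.62, -0.51 and -1.21. At the unadjusted threshold 8 were higher and 8 lower as reported, 9 and 3 under quantile, 9 and 2 under median scaling, 3 and 0 under none, and 8 and 4 on the deposited table. After adjustment, limma called 0 as reported, 1 without background correction, with the offset of 1 or on the deposited table, and 4 with the block on that table, no member among them. The signal of dre-miR-96 over the blanks limits the size of its fold, and the causes of these dependences were not tested.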
